A study of Mus musculus with 6 samples.

Results

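The genes described here encode the enzymes and transporters that carry glucose to lactate, the kinases that close the entrance to the mitochondrion, and the hypoxia-inducible factors (HIF) with some of their targets. They were listed by function, as 32 gene symbols, and every probe of the array listed under 1 of these symbols or an older alias was taken. That gave 56 probes of 28 genes, of 46237 probes and 20289 named genes in all. Hk2, Gpi1, Eno1 and Ldhb had no probe under their names in the annotation used and were not analysed here. The measurements come from 6 bead arrays, 3 of wt and 3 of Matn4-/- haematopoietic stem cells, with 1 linear intensity per probe and array.

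Both kinds of stem cell had been through the same transplantation. Irradiated recipients, which carried CD45.1, had been given 2 doses of 500 Rad and then bone marrow mixed in equal parts from both genotypes. Donor marrow was told apart by the CD45 allele, CD45.1.2 for wt donors and CD45.2 for those lacking Matn4. After 4 weeks the stem cells of each donor were sorted as LSK cells (lineage-negative, Sca-1 and Kit positive) that were CD150+ and CD48-. The labels describe female C57/BL6 mice aged 12 weeks. Matn4 encodes the matrix protein matrilin-4. Effects of the CD45 allele and of Matn4 cannot be told apart in this design. The labels used here do not say how the deletion was made or whether the arrays of a group come from separate recipients or pools. All p-values therefore measure only the spread between these arrays.

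Glycolysis splits glucose into pyruvate and turns pyruvate into lactate without using oxygen. HIF is a pair of proteins, an alpha subunit that prolyl hydroxylases mark for destruction when oxygen is present and a beta subunit (Arnt). Together they switch on glucose transporters, glycolytic enzymes and pyruvate dehydrogenase kinases. Quiescent stem cells of the marrow are known for relying on glycolysis, and Hif1a and the pyruvate dehydrogenase kinases have been tied to that state in mice.

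HIF binds DNA at the core ACGTG or GCGTG. Promoters of 3 members are shown because they are textbook glycolytic targets or, for Pkm, because its brightest probe had the largest difference between genotypes among the genes' brightest probes. Each line holds the 250 bases before a transcription start from RefSeq (GRCm38.p6, plus strand of the genome, 5′ to 3′). Capitals mark ACGTG or GCGTG on either strand, and where CACGTG is read, both strands match over the same bases and count as 2. The Ldha promoter shown, the one of its 2 with more matches, lies at chr7:46845554-46845803, the Pgk1 promoter at chrX:106186850-106187099 and both Pkm promoters at chr9:59656326-59656575 and chr9:59656977-59657226.
Ldha: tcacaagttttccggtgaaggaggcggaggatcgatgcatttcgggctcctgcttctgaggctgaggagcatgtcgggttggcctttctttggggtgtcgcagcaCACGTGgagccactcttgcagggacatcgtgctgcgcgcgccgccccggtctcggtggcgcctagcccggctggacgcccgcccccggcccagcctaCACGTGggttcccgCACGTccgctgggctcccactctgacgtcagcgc
Pgk1: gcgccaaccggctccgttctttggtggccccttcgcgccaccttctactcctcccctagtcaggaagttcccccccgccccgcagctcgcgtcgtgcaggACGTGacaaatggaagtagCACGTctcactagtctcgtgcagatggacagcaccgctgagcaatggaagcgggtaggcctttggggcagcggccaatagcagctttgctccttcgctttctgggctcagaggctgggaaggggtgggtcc
Pkm, upstream start: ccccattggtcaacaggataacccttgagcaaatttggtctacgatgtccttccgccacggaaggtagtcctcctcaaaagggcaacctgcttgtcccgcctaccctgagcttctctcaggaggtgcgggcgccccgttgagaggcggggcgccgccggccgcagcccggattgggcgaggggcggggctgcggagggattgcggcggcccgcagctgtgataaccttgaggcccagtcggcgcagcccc
Pkm, downstream start: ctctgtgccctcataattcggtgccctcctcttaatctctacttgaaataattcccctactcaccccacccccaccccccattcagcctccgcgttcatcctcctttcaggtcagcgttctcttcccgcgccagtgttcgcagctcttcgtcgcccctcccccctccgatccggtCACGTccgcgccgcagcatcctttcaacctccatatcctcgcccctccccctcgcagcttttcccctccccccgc
The shown Ldha promoter held 5 matches and the other, at chr7:46846832-46847081, 1. There were 2 in the Pgk1 promoter, 1 in the downstream Pkm promoter and 0 in the upstream one. Of 44 promoters of 30 members in the table, 35 (79.5%) held a match, against 38.6% of all 32851 promoters of the same length. The median GC content was 61.6% for the members' promoters and 52.4% for all, and both cores hold CG. A match describes letters in this window and does not show that HIF binds there.

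The deposited intensities still contain background, so its level had to be set first. The cells are female, and the 16 probes of 9 Y-linked genes served as a floor. The brightest of them read 127, 142 and 133 on wt arrays 1 to 3 and 142, 134 and 126 on Matn4-/- arrays 1 to 3. A probe is called above background on an array where it exceeds the brightest Y-linked probe of that array. Of the 56 member probes, 23 were above background on all 6 arrays, 16 on some and 17 on none, and 17 of the 28 genes had a probe above it on all 6. Across the whole array, 8793 of 46237 probes were above background on all 6 arrays, 12795 on some and 24649 on none. Of all 20289 named genes, 5539 had a probe above it on all 6. A probe's brightness depends on its own sequence, so levels of different genes are not compared directly, and the isoforms are described by whether they stood above this floor. That call still sets each probe against the Y-linked probes and shares this limit.

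**Figure D1:**
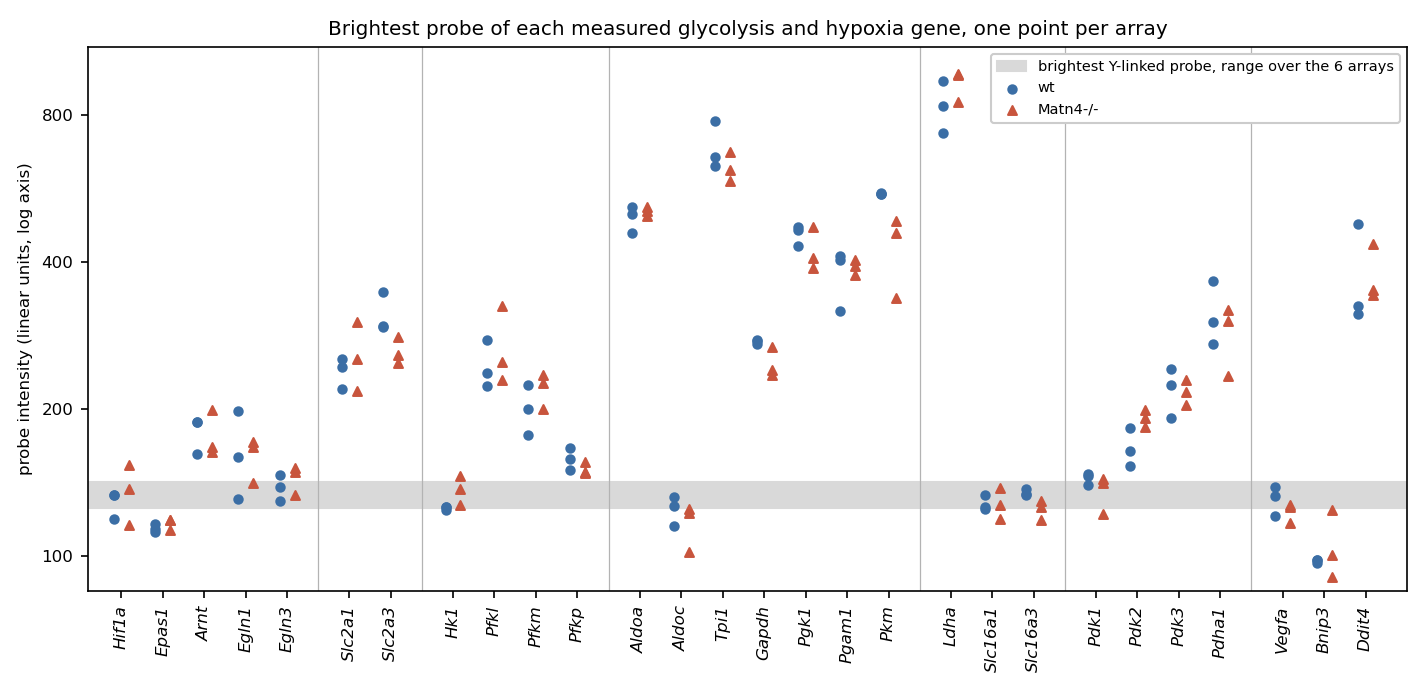
Intensity of the brightest probe of each of the 28 measured genes (log axis, linear intensity units), with 3 wt arrays as circles and 3 Matn4-/- arrays as triangles, ordered by role. The grey band spans the brightest Y-linked probe of the 6 arrays (126 to 142). Aldoa, Tpi1, Pgk1, Pkm and Ldha lie well above it, while Epas1, Aldoc and Bnip3 lie in or below it.

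Among the HIF subunits on the list, the beta subunit had probes above background on every array and the alpha subunits had none. Arnt read 189, 188 and 162 on the wt arrays and 199, 163 and 167 on the Matn4-/- arrays with its brightest probe, above background on all 6. Of the 5 Arnt probes, 2 were above background on all 6 arrays, 1 on some and 2 on none. Hif1a read 134, 119 and 134 on the wt arrays and 116, 154 and 137 on the Matn4-/- arrays, above background on 4 of 6 arrays. The other 2 Hif1a probes exceeded the floor on 1 and 0 arrays. Epas1, which encodes HIF-2 alpha, was above background on no array with either probe, at 112 to 119 and 99.7 to 114. The alpha subunits are controlled mainly through the stability of the protein, which arrays do not measure.

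No probe of the prolyl hydroxylases on the list was above background on all 6 arrays. The 3 Egln1 probes were above it on 5, 4 and 3 arrays, from the brightest down. Egln1, the main oxygen sensor of the family, read 131, 160.0 and 199 on the wt arrays and 141, 168 and 171 on the Matn4-/- arrays. Each of its 3 probes was highest on wt array 3, and the lowest array was wt 1 for 2 of them and Matn4-/- 1 for the other. Egln3, itself a HIF target, read 129.6 to 151 with its brightest probe, above background on 4 arrays, and its other 2 probes were above it on none. Of genes that are no members, Egln2 was above background on all 6 arrays, Hif3a on 4 and Arnt2 on none.

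Both glucose transporters on the list were expressed above the floor. Slc2a1 (GLUT1), the widespread basal transporter, read 244, 253 and 219 on the wt arrays and 253, 218 and 302 on the Matn4-/- arrays. Slc2a3 (GLUT3), a transporter of high glucose affinity, read 295, 347 and 296 on the wt arrays and 258, 281 and 249 on the Matn4-/- arrays. Of the other transporters listed by function, Slc2a2, Slc2a4, Slc2a5 and Slc2a6 were above background on no array, and Slc2a8 was on 2. Slc2a1 and Slc2a3 were thus the only ones of the 7 transporters measured whose brightest probe was above background on every array.

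The upper steps drew on several isoforms. Hk1, the housekeeping hexokinase that starts glycolysis, read 126, 126 and 124 on the wt arrays and 137, 127 and 146 on the Matn4-/- arrays, above background on 1 array. Hk3, a hexokinase of myeloid cells that is no member, was above background on all 6 with its brightest probe, at 195 to 229.9. Its second probe was above background on none, as was Hkdc1. All 3 Matn4-/- arrays lay above the wt arrays for Hk1, near background, and for the brightest Hk3 probe. That Hk3 probe differed by 0.13 ± 0.07 on the log2 scale (SE, limma adjusted p = 0.962). The second Hk3 probe differed by 0.04 ± 0.07, with overlapping groups. Of the phosphofructokinases, which set the committed step, all 3 isoforms had a probe above background on every array. The liver-type gene Pfkl read 277, 237 and 223 on the wt arrays and 250.01, 325 and 229 on the Matn4-/- arrays. The muscle-type gene Pfkm read 224, 199.9 and 177 on the wt arrays and 226, 235 and 200.4 on the Matn4-/- arrays. Their groups overlapped, and Matn4-/- array 2 was the highest for both. The platelet-type gene Pfkp ranged from 148 to 167 over the 6 arrays.

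From aldolase to pyruvate kinase, 1 isoform of each enzyme was above background on all 6 arrays, apart from enolase. Aldoa, the aldolase of most tissues, read 500.3, 458 and 517 on the wt arrays and 497, 517 and 509 on the Matn4-/- arrays. Only wt array 2 lay apart from the rest. Aldoc, the brain-type aldolase, was above background on 1 array with each of its 2 probes, at 102 to 132 and 96.2 to 135. Tpi1, triose phosphate isomerase, read 656, 778 and 627 on the wt arrays and 672, 585 and 616 on the Matn4-/- arrays with its brightest probe. Gapdh, which makes the first NADH of the pathway, read 275, 271 and 277 on the wt arrays and 268, 241 and 235 on the Matn4-/- arrays. The wt arrays lay close together and all 3 Matn4-/- arrays lay below them. Gapdhs, its sperm-type relative, was above background on none.

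Pgk1, the kinase of the first ATP-yielding step, had 3 probes. The brightest read 471, 432 and 464 on the wt arrays and 389, 472 and 406 on the Matn4-/- arrays. The other 2 were above background on no array. Pgam1, phosphoglycerate mutase, read 412, 318 and 404 on the wt arrays and 403, 392 and 375 on the Matn4-/- arrays. Their testis and muscle relatives Pgk2 and Pgam2 were above background on no array. For enolase only relatives were read, Eno2 above background on 1 array, Eno3 on none and Eno1b, a retroposed relative of Eno1 added after its values had been seen, on 4 (131 to 140.5). Probes of Gapdh, Pgk1, Pgam1, Tpi1, Aldoa and Ldha can also take up signal from processed copies of these genes, and how much is uncertain, since probe sequences were not used here.

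Pkm, the pyruvate kinase of most tissues other than liver and red cells, read 553, 552 and 551 on the wt arrays and 459, 485 and 337 on the Matn4-/- arrays. The wt arrays were nearly identical and Matn4-/- array 3 was the lowest. Pklr, the liver and red cell gene, was above background on no array with any of its 3 probes, at 106 to 121 for the brightest. Pkm makes the PKM1 and PKM2 proteins by a choice of exon, and which exon the probes read is not known here.

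At the lactate step Ldha, the subunit that favours making lactate, read 735, 937 and 831 on the wt arrays and 963, 969 and 850.2 on the Matn4-/- arrays. The lowest value was that of wt array 1, and the groups overlapped. Ldhc, the testis subunit, was above background on 1 array and Ldhd on none. The lactate exporters on the list stayed near the floor. Slc16a1 (MCT1) read 119 to 138 and Slc16a3 (MCT4), the HIF-induced exporter, 119 to 137 with its brightest probe, each above background on 2 arrays. All 3 Matn4-/- arrays lay below the wt arrays for Slc16a3, near background. Slc16a7 (MCT2), which is no member, was above background on 5 arrays with a probe listed under the clone name D630004K10Rik. Its other probe, listed under Slc16a7 itself, was above it on none.

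The kinases that switch off pyruvate dehydrogenase were present in more than 1 form. Pdk2, the widespread kinase, read 183, 153 and 164 on the wt arrays and 199, 191 and 184 on the Matn4-/- arrays, and Pdk3 read 224, 192 and 242 on the wt arrays and 204, 217 and 229.9 on the Matn4-/- arrays. Pdk1, the kinase known as a HIF target, read 146, 147 and 139.7 on the wt arrays and 144, 141 and 122 on the Matn4-/- arrays, above background on 5 arrays. Pdk4, a kinase of fasting that is no member, was above it on 1. Pdha1, the catalytic subunit these kinases act on, read 365, 301 and 272 on the wt arrays and 319, 303 and 234 on the Matn4-/- arrays, with wide overlap between groups.

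Of the HIF targets outside metabolism, 1 stood clear of background. Ddit4 (REDD1), an inhibitor of mTORC1 under stress, read 314, 326 and 479 on the wt arrays and 350.4, 343 and 435 on the Matn4-/- arrays, highest on replicate 3 of each group. Vegfa, the angiogenic factor, was above background on 1 array with its brightest probe (117 to 139) and on none with the other 2. Bnip3, a mitophagy receptor, was above it on none (90.6 to 124). For these and other genes near the floor, fewer cells with the transcript and less transcript per cell cannot be told apart in bulk samples.

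**Figure D2:**
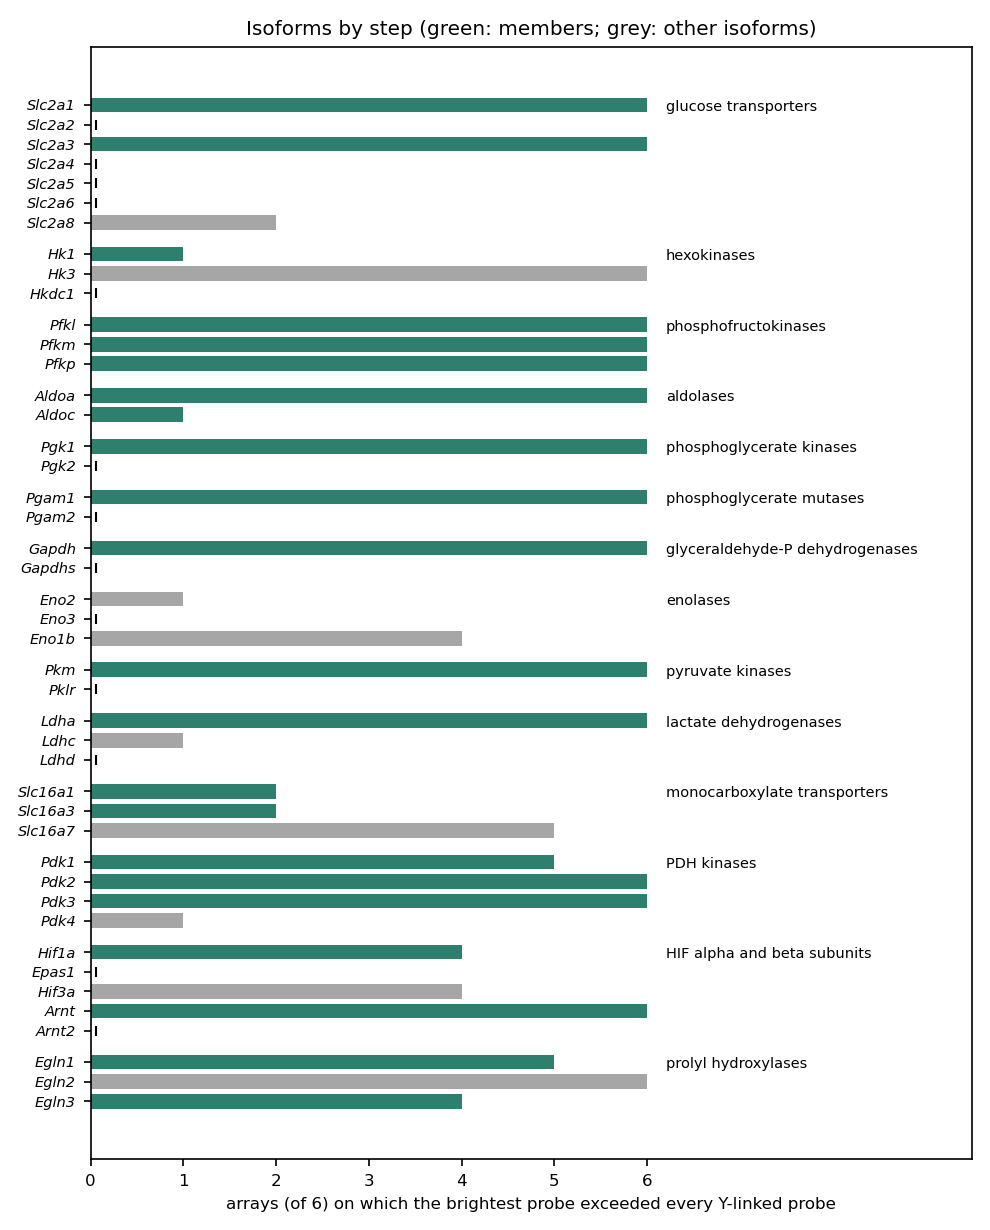
Number of arrays, of 6, on which the brightest probe of each isoform exceeded every Y-linked probe, grouped by enzyme or regulator (green, members; grey, other isoforms; a tick marks 0). Most steps have 1 isoform at 6 arrays, such as Aldoa and not Aldoc, while all 3 phosphofructokinases reach 6.

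The genotypes were then compared, and no member probe passed the test across the array. Probes were tested with limma on log2 intensity over the brighter 50% of probes, and 42 member probes of 26 genes were among these. Bnip3 and Epas1 had no probe among them and have values only. None of the 42 passed an adjusted p of 0.05 (Benjamini-Hochberg over 23118 probes), where 11 probes of all passed, 0.0476%. The lowest adjusted p of a member was 0.779. At an unadjusted p under 0.05 stood 5 of the 42 (11.9%), 1 higher and 4 lower in Matn4-/- cells, against 5.45% of all probes. These were probes of Pdk2 (higher) and of Arnt, Slc2a3, Pkm and Pdk1 (lower). The groups did not overlap in 8 of the 42 (19.0%), against 10.4% of all probes, and Hk1, Gapdh and Slc16a3 joined the list there. The Pdk1 probe counted here was among the brighter 50% through its wt values. Probes of 1 gene are not independent, and these shares carry no test.

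The targeted gene did not separate the groups. The brightest Matn4 probe read 310.3, 158 and 378 on the wt arrays and 168, 318 and 331 on the Matn4-/- arrays, and its other 2 probes were above background on no array. Where these probes lie relative to the deletion is not known here, so they check nothing, and each direction is that of the arrays labelled Matn4-/-. Of the sort markers, the brightest probes of Kit and of Slamf1 (CD150, 141 to 178) were above background on all 6 arrays, the other 2 Slamf1 probes on 1 array each, and Cd48 on none at 112 to 120.4, while Ly6a (Sca-1) was not analysed here. Matn4-/- array 3 stood apart over all probes, with a mean Spearman correlation of 0.745 with the other arrays against 0.852 to 0.866 for the others. Among the tested probes its correlation was 0.7796, against 0.7965 to 0.8365 for the others. Within the 42 member probes it did not stand apart in this way, with the highest correlation, 0.916 against 0.887 to 0.910. Over the 42 member probes Matn4-/- array 3 had the lowest mean log2 level relative to the 6 arrays, -0.07 against -0.00 to 0.03 on the others. Over all 23118 tested probes it was lowest as well, at -0.04 against 0.00 to 0.01.

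The intervals were narrow on the deposited scale. Differences are given from here on as log2 Matn4-/- minus log2 wt with their SE (3 arrays a group, adjusted p from limma). For 40 of the 42 probes the 95% interval of the difference lay within 0.5 of 0 on the log2 scale, a factor of 1.41, and the exceptions were the brightest Pkm probe and the second Pdk1 probe. Background in the values compresses such differences. With each array's median Y-linked intensity subtracted, the intervals of 18 of the 42 lay within a factor of 2. For the rest the interval reached beyond a factor of 2.

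**Figure D3:**
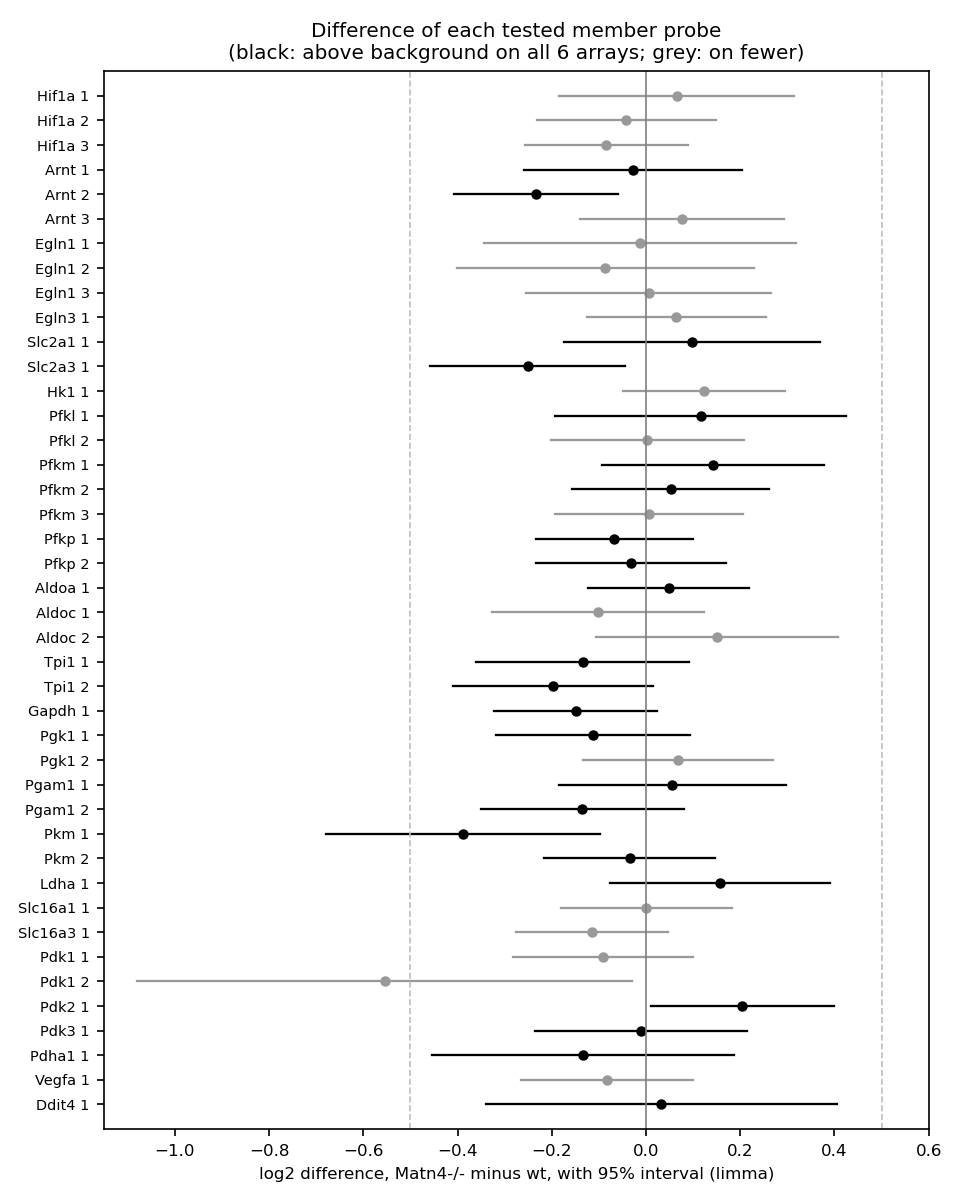
Difference between Matn4-/- and wt on the log2 scale for the 42 tested member probes, with the 95% interval of the limma fit and with probes numbered by brightness within a gene. Black marks probes above background on all 6 arrays and grey those above it on fewer, and dashed lines mark 0.5 on either side of 0. Apart from Pkm probe 1 and Pdk1 probe 2, all intervals stay between the dashed lines, and no probe passed the adjusted threshold.

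Pkm had the largest difference among the genes' brightest probes. It averaged 552 ± 0.867 (SD, n = 3) in wt stem cells and 427 ± 79.2 (n = 3) in those lacking Matn4, and the groups did not overlap. The log2 difference was -0.39 ± 0.13 (SE, 95% interval -0.68 to -0.10, limma adjusted p = 0.78). Without Matn4-/- array 3 it was -0.23, less by over 1.5 times. The second Pkm probe, listed under the older symbol Pkm2, read 188, 166 and 162 on the wt arrays and 170.0, 168 and 164 on the Matn4-/- arrays and differed by -0.03 ± 0.08 (adjusted p = 0.999). The probes of this gene thus gave differences of unequal size, and the groups of the second overlapped.

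Slc2a3 was lower in Matn4-/- cells on every array, without passing. The lowest wt array read 295 and the highest Matn4-/- array 281, and the log2 difference was -0.25 ± 0.09 (adjusted p = 0.845). Slc2a1 differed by 0.10 ± 0.12 (adjusted p = 0.999) and its groups overlapped. The transporters thus had values of opposite sign, and the difference between the 2 genes was not tested.

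Arnt depended on the probe. Its second probe read 177, 164 and 166 on the wt arrays and 145, 135 and 152 on the Matn4-/- arrays, lower on all 3 Matn4-/- arrays (-0.23 ± 0.08, adjusted p = 0.779). The brightest Arnt probe differed by -0.03 ± 0.10 and the third by 0.08 ± 0.10, with overlapping groups in both. The lower value belonged to 1 of 3 tested Arnt probes.

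Both Pdk1 probes were lower in Matn4-/- cells, unequally. The brightest differed by -0.09 ± 0.08 (adjusted p = 0.999). The second, listed under the clone name D530020C15Rik, read 130.1, 265 and 140.4 on the wt arrays and 114, 109 and 123 on the Matn4-/- arrays. It was above background on all 3 wt arrays and no Matn4-/- array, and wt stood 1.26-fold above the floor of the other group. Its mean on the Matn4-/- arrays, 115, lay below the lowest mean of a kept probe, 118.6, so it was kept for the test through its wt values. Without wt array 2 the ratio to that floor was 1.01. Of the wt arrays, number 2 stood far above the others. The fit gave an adjusted p of 0.902 for that probe, and without wt replicate 2 its fitted difference moved from -0.55 to -0.23. Pdk2 was higher on all 3 Matn4-/- arrays, by a small margin over wt array 1 (0.20 ± 0.09, adjusted p = 0.903). Pdk3 differed by -0.01 ± 0.10 and Pdha1 by -0.13 ± 0.14, with overlapping groups.

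**Figure D4:**
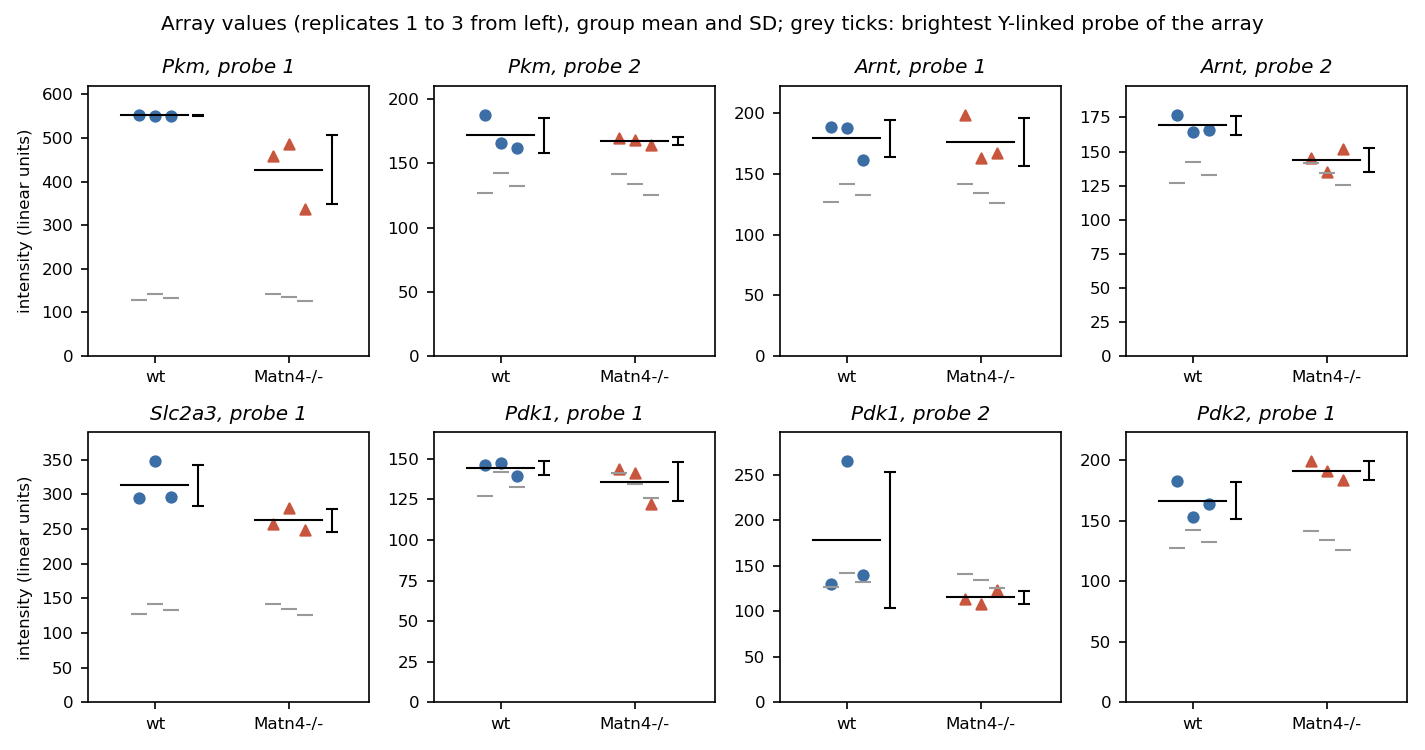
Intensities of 8 member probes by array (linear units from 0; circles wt, triangles Matn4-/-, replicates 1 to 3 from left; lines and bars, mean and SD of 3 arrays; grey ticks, the brightest Y-linked probe of that array). The groups of Pkm probe 1, Arnt probe 2, Slc2a3, Pdk1 probe 2 and Pdk2 do not overlap, those of Pkm probe 2, Arnt probe 1 and Pdk1 probe 1 do.

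None of the remaining enzymes passed. Ldha was 0.16 higher (SE 0.10, 95% interval -0.08 to 0.39, adjusted p = 0.989), opposite in sign to Pkm. Gapdh differed by -0.15 ± 0.08 (adjusted p = 0.957), its groups just apart. The 2 bright Tpi1 probes differed by -0.13 ± 0.10 and -0.20 ± 0.09, both downward. Aldoa differed by 0.05 ± 0.08, with an interval of -0.12 to 0.22 that was among the narrow ones. The brightest Pgk1 probe differed by -0.11 ± 0.09. The second tested Pgk1 probe, above background on no array, had the opposite sign (0.07 ± 0.09). The Pgam1 probes differed by 0.06 ± 0.11 and -0.14 ± 0.10, also of opposite sign.

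Upstream of these, the brightest probe of Pfkl differed by 0.12 ± 0.14, of Pfkm by 0.14 ± 0.10 and of Pfkp by -0.07 ± 0.07. The second Pfkl probe differed by 0.00 ± 0.09 and the second Pfkp probe by -0.03 ± 0.09. The other Pfkm probes differed by 0.05 ± 0.09 and 0.01 ± 0.09. Groups overlapped for all of these probes. Members near background had values as small on the deposited scale. The Hif1a probes differed by 0.07 ± 0.11, -0.04 ± 0.08 and -0.08 ± 0.08, of both signs. The Aldoc probes differed by -0.10 ± 0.10 and 0.15 ± 0.11. Egln3 differed by 0.06 ± 0.08, Hk1 by 0.12 ± 0.08, Slc16a1 by 0.00 ± 0.08, Slc16a3 by -0.11 ± 0.07 and Vegfa by -0.08 ± 0.08. Those values describe signal that background makes up in large part, and none passed.

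By role, counts went both ways and no member passed. Of the 12 tested probes from aldolase to pyruvate kinase, 4 were higher and 8 lower, with a median of -0.11 against -0.01 over all tested probes. That median was -0.05 without Matn4-/- array 3 and -0.06 without wt array 1. Of the 8 probes of hexokinase and phosphofructokinase, 6 were higher and 2 lower (median 0.03). Without Matn4-/- array 2 this turned to 3 higher and 5 lower (median -0.04), and with quantile normalization, median scaling or background subtraction it was 4 and 4. Of the 10 probes of HIF factors and hydroxylases, 4 were higher and 6 lower (median -0.02), which turned to 6 and 4 without wt array 3 (median 0.08) or Matn4-/- array 1 (0.01) and with cyclic loess (0.01). Of the 5 at the pyruvate dehydrogenase gate, 1 was higher and 4 lower (median -0.09), and the median was -0.02 without wt array 1 and without Matn4-/- array 3. The whole set had 19 higher and 23 lower, with a median of -0.02. Of 12 genes with more than 1 tested probe, 6 had probes of 1 direction and 6 of both.

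Some members varied between arrays of a genotype more than between genotypes. Ddit4 averaged 373 ± 92 (SD, n = 3) in wt stem cells and 376 ± 51.3 (n = 3) in those lacking Matn4, a log2 difference of 0.03 ± 0.16. Egln1 averaged 163 ± 33.8 and 160.1 ± 16.3 (log2 -0.01 ± 0.15). Markers of other blood cells differed between the arrays as well. Over the 18 tested probes of 7 erythroid markers, the mean log2 level relative to the 6 arrays was -0.31, -0.04 and 0.23 on wt arrays 1 to 3 and -0.11, -0.05 and 0.27 on Matn4-/- arrays 1 to 3. The 9 tested probes of neutrophil and granule markers stood at -0.36, 0.07 and 0.29, then -0.09, -0.22 and 0.31. The 5 of monocyte and macrophage markers stood at -0.07, -0.08 and 0.04, then -0.03, -0.12 and 0.24. The 5 of mast cell and basophil markers stood at -0.20, -0.11 and 0.09, then -0.07, -0.01 and 0.30. All 5 mast cell and basophil differences were upward, and none passed. These lists were highest on replicate 3 of each group, as Ddit4 was, and their part in the members' values was not tested. By summed intensity the erythroid list ran from 1754 to 2723 in wt and 2009 to 2859 in Matn4-/- cells, with 4 of 8 measured genes above background on all arrays, among them Hbb-b1 and Hba-a1, and Epor on none. The granule list ran from 1496 to 2219 and from 1634 to 2273, with Mpo and Prtn3 above background on all arrays and S100a8 and Lcn2 on none. Of the monocyte list only Lyz2 was above background on all arrays, with Adgre1, Csf1r and Cd14 on none. Of the mast cell list only Mcpt8 was, with Ms4a2, Mcpt4, Gzmb and Tpsb2 on none. In 2 other lists every wt array had a higher mean level than every Matn4-/- array. The 7 tested probes of platelet and megakaryocyte markers stood at 0.10, 0.08 and -0.01 on the wt arrays and -0.04, -0.02 and -0.11 on the Matn4-/- arrays, and the 4 tested probes of T and NK cell markers at 0.08, 0.03 and 0.04, then 0.00, -0.06 and -0.10. The summed platelet list ran from 1236 to 1296 in wt and from 1142 to 1224 in Matn4-/- cells, with Pf4, Itga2b, Vwf and Gp9 above background on all arrays and Gp1bb on none. The summed T and NK list ran from 924 to 934 and from 878 to 925, an overlap, with Nkg7 and Lat above background on all arrays and Cd3g, Cd3e, Cd8a and Klrd1 on none. By probe, 1 was higher and 6 lower in Matn4-/- cells in the platelet list, and 1 higher and 3 lower in the T and NK list. Of the members, 1 probe each of Pkm, Slc2a3, Gapdh, Arnt, Pdk1 and Slc16a3 was also lower on all 3 Matn4-/- arrays. For Hk1 and Pdk2 1 probe each was higher on all 3, and the groups of the other tested member probes overlapped. The part of these markers in the members' values was not tested.

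Other genes of the pathway, taken from lists by function, gave no call either. None of their 97 tested probes passed, and the background share of 0.0476% holds for them too. Of 27 tested probes of HIF regulators and partners, 14 were higher and 13 lower (median 0.00). Smallest in p, without passing, were Meis1, a stem cell factor known to drive Hif1a in mice (-0.24 ± 0.12 on the log2 scale), the coactivator Crebbp (0.32 ± 0.17) and Elob, of the VHL ubiquitin ligase (0.16 ± 0.09). The Crebbp value is that of the dimmest of its 3 tested probes. All 3 Meis1 probes were lower (-0.28 and -0.16 for the others), with adjusted p-values from 0.943 to 0.962. The Crebbp value rests on Matn4-/- array 1, which read 209.8 against 119.7 to 134 elsewhere. The other Crebbp probes differed by 0.11 and 0.10 and the other Elob probe by -0.11.

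Of 28 tested probes of other HIF targets, 11 were higher and 17 lower (median -0.02), with Jmjd6 (-0.20 ± 0.09), Insig2 (0.20 ± 0.09) and Mxi1 (-0.20 ± 0.11) smallest in p. The other tested probes of Insig2 and Mxi1 had the opposite sign, at -0.12 ± 0.07 and 0.07 ± 0.07. Of 18 probes of other glycolytic isoforms and regulators, 9 were higher and 9 lower (median 0.00). Pfkfb2, which makes the activator of phosphofructokinase, read 199, 184 and 233 on the wt arrays and 179, 164 and 155 on the Matn4-/- arrays (-0.30 ± 0.10, adjusted p = 0.79), and its second tested probe differed by -0.06. Pgam5, a mitochondrial phosphatase despite its name, differed by -0.39 ± 0.14 (adjusted p = 0.845), and Pgm1, of glycogen metabolism, by 0.29 ± 0.13 (adjusted p = 0.911). The other tested Pgm1 probe differed by 0.01 ± 0.12. Of 15 probes of pyruvate import and the pyruvate dehydrogenase complex, 6 were higher and 9 lower (median -0.03). Among them were Dlat at -0.12 ± 0.08, Pcx at -0.11 ± 0.08 and Slc16a7 at -0.25 ± 0.19. The Slc16a7 value is that of its clone-named probe. Of 9 probes of the pentose phosphate pathway, 7 were higher and 2 lower (median 0.06), with Pgd at -0.19 ± 0.11, Rpia at 0.12 ± 0.08 and Taldo1 at 0.13 ± 0.11.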

How the data were processed

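RNA of sorted stem cells was amplified from 2.5 ng, labelled with biotin and hybridised, per the labels' protocols. The deposited table holds 1 linear intensity per probe and array. The authors' background treatment and normalization were not given in the sources used here. Medians of the 6 columns lay between 118.0 and 120.4, so some scaling between arrays had been applied or was not needed. A second table, with 12 value columns whose names match no label, was not used.

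Probes were named through the platform table, updated by Entrez identifier, accession or older symbol (RefSeq, GRCm38.p6). 35784 of the 46237 probes had 1 symbol, none had several and 10453 had none. The brighter 50% by mean log2 intensity were kept (23118 probes). The dimmest kept member probe, of Aldoc, averaged 119 and the brightest member probe left out, of Epas1, 115. A limma fit (3.58.1, R 4.3.3) of log2 intensity on genotype gave p-values, adjusted by Benjamini-Hochberg over the kept probes with a threshold of 0.05. The fit was run on simulated data as a check of the code, and its power for differences of the members' size is not given here. Tables and plots were made with Python 3.11.15, pandas 2.3.3 and matplotlib 3.10.9.

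All members are named. From each list of other pathway genes the 3 smallest in p are named when none passed. Members and lists were chosen with earlier results of these data known. Where a group was at background, the fold given is the other group over the brightest Y-linked probes of the group at background (geometric means). Deviations of same-numbered arrays correlated at 0.01, 0.04 and 0.05, and those of unlike numbers at -0.07 to 0.02. These values do not settle whether same-numbered arrays are pairs. The main fit did not pair them, and a fit with the replicate number as a block is given below. Precision is limited by the number of arrays.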

Additional observations from a re-analysis of the deposited data

How the results depend on the processing

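Each result was recomputed under 16 alternatives. No member probe passed under any of them, and their lowest adjusted p was 0.376 (the second Arnt probe, array weights). Of 410 recomputed values of 26 genes, 378 kept their sign and 32 did not. Of the 15 genes without a sign change, leaving out 1 array at a time gave the brightest probe a range of -0.49 to -0.23 for Pkm, -0.30 to -0.17 for Slc2a3, -0.14 to -0.02 for Pdk1, 0.14 to 0.27 for Pdk2, -0.21 to -0.11 for Gapdh, -0.20 to -0.04 for Tpi1 and 0.07 to 0.24 for Ldha. Over all probes 11 passed. With the Y-linked background subtracted 2 did, with 1 row per gene 4, with a trended and robust variance 17, and with each array left out 3 to 9 (4 without wt array 1, 5 without wt array 2 or 3, and 3, 9 and 7 without Matn4-/- arrays 1, 2 and 3). With the replicate block 13 passed, none of them a member, and no call on a member changed. The members' median of -0.02 became -0.17 with background subtracted, where the median of all probes was -0.19. These genes changed sign. Arnt stood at 0.0068 with quantile normalization and 0.0061 with cyclic loess, Pdk3 at 0.015 and 0.021. Slc16a1 was at -0.014 with quantile normalization, -0.013 with median scaling and -0.34 with background subtracted. Egln1 was at 0.019 with cyclic loess and 0.014 with array weights, which gave -0.0018 for Slc2a1 and -0.024 for Ddit4. With each array left out in turn the values ranged as follows, for Hif1a -0.030 to 0.17, Arnt -0.12 to 0.026, Egln1 -0.16 to 0.14, Slc2a1 -0.023 to 0.21, Pfkl -0.032 to 0.22, Aldoa -0.0026 to 0.085, Pgam1 -0.065 to 0.12, Slc16a1 -0.054 to 0.052, Pdk3 -0.10 to 0.063, Pdha1 -0.23 to 0.0028 and Ddit4 -0.078 to 0.23. The cause of these changes was not tested. Signal near background limits Hif1a, Epas1, Egln3, Hk1, Aldoc, Slc16a1, Slc16a3, Vegfa and Bnip3.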
